A study of Homo sapiens with 9 samples.

Results

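The genes described here encode heat shock chaperones and their cochaperones. They are the genes whose symbol in the array's probe annotation starts with HSPA, HSPB, HSPD, HSPE, HSPH, HSP90A, DNAJA, DNAJB or DNAJC, or is BAG1 to BAG5, without pseudogenes and without HSPA5, DNAJB9, DNAJB11 and DNAJC3, which act in the endoplasmic reticulum (ER). The rule used symbols alone and no measured value. It gave 74 of the 19775 genes tested, of which 69 are protein-coding and 5 are antisense or divergent noncoding loci named after a chaperone gene (DNAJB8-AS1, DNAJC27-AS1, DNAJC3-DT, DNAJC9-AS1 and HSPA2-AS1). Another 7 symbols, among them HSPA1A, HSPA1B and HSPA8, occur only on probe sets annotated with several genes and were not analysed here. The letters also take in J proteins of the ER membrane, such as DNAJB12 and DNAJB14, and 2 genes named for binding a chaperone, HSPBP1 and HSPBAP1.

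RNA came from H295R cells, a line derived from a human adrenocortical carcinoma, 3 h after treatment. One group received 100 nM of CP-529414, which is torcetrapib, a drug candidate that blocks transfer of cholesteryl esters between lipoproteins. Another received 100 nM angiotensin II, the peptide hormone that stimulates aldosterone secretion, and the last one received the vehicle, dimethyl sulfoxide (DMSO). Each group held 3 arrays. The labels do not say whether the arrays of a group hold separate cultures. The p-values then reflect the array-to-array spread, which may be technical, and the number of arrays limits the precision. In bulk RNA, fewer cells with a transcript and less of it per cell cannot be told apart. The values are log2 levels from robust multi-array averaging (RMA) per probe set, the group of short probes that reads 1 transcript, and each gene was compared by its brightest probe set.

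Heat shock proteins bind unfolded or partly folded proteins and release them in cycles driven by ATP. J proteins (the DNAJ families) bring clients to HSP70 and speed its ATP hydrolysis, while BAG proteins and HSP110 act on nucleotide exchange. HSP90 finishes the folding of kinases and steroid receptors, HSP60 with HSP10 folds proteins inside mitochondria, and small heat shock proteins hold unfolded clients. When unfolded proteins accumulate, heat shock factor 1 (HSF1) binds heat shock elements, inverted repeats of the letters GAA, and raises transcription of many of these genes within hours. In adrenocortical cells the steroidogenic enzymes of mitochondria have to be imported and folded, and angiotensin II acts through calcium and protein kinases.

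All 7 adrenal cortex markers measured lay above 4.87, the lower quartile of gene means over the 9 arrays on the log2 scale, with means from 7.12 to 11.98. The 4 fibroblast markers, with means from 4.88 to 7.72, also all lay above that quartile. The 4 adrenal medulla markers had means from 3.91 to 6.86, the 3 endothelial markers from 3.83 to 6.02 and the 2 immune markers from 3.5 to 5.0. The arrays differed in the 5′ minus 3′ signal of the ACTB and GAPDH control probe sets, an index of how far the labelled RNA reached towards the 5′ end. It was −0.275, −0.219 and −0.233 on the torcetrapib arrays, −0.621, −0.627 and −0.597 on the angiotensin II arrays and −0.719, −0.276 and −0.504 on the DMSO arrays. The 3 torcetrapib arrays lay highest, with the second DMSO array just below them. In exact two-sided permutation tests p was 0.1 for torcetrapib against DMSO, 0.1 for torcetrapib against angiotensin II, the smallest value that 3 against 3 arrays allow, and 0.5 for angiotensin II against DMSO.

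The first comparison asked how the hormone changed these genes against vehicle. With angiotensin II, 6 of the 74 genes rose and 1 fell. DNAJB1, DNAJB4, DNAJB2, DNAJC12, BAG3 and HSPA2 rose, and DNAJB14 fell. Of the 10 DNAJB genes 3 rose and 1 fell, against 1 of 26 DNAJC genes, 1 of 11 HSP70 and HSP110 genes and 1 of 5 BAG genes that rose. The 7 calls are 9.46% of the chaperone genes, with limma and a Benjamini-Hochberg adjusted p under 0.05, and 6.12% of all genes tested were called in this comparison. Higher calls made up 3.36% of all genes and lower calls 2.76%. At an unadjusted p under 0.05 there were 20 of the 74 chaperone genes, beside 3259 of all 19775 genes. The 3 angiotensin II arrays lay above all DMSO arrays for 13 chaperone genes and below them for 6, while 9.26% of all genes lay above and 8.37% below. The median difference of the 74 genes was 0.04 on the log2 scale, beside 0.01 for all genes.

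The widest rise belonged to DNAJB1, the main inducible J protein partner of cytosolic HSP70 (chromosome 19). Its RMA levels were 9.88, 9.85 and 9.78 on the torcetrapib arrays, 10.67, 10.51 and 10.70 on the angiotensin II arrays and 9.84, 9.84 and 9.91 on the DMSO arrays. The angiotensin II arrays stood apart above both other groups, and the torcetrapib and DMSO arrays overlapped. The rise with angiotensin II was 0.76 ± 0.06 (SE) on the log2 scale, or 1.70-fold, with an adjusted p of 1.54e-07 in limma and a 95% interval from 0.64 to 0.88. In 17 alternative settings the adjusted p ran from 3.0e-10 to 5.48e-05. A second probe set for DNAJB1 gave 0.61 against DMSO, with an adjusted p of 0.00418 in limma over single probe sets. With torcetrapib the difference of DNAJB1 from DMSO was −0.03 (adjusted p = 0.89, limma), and its 95% interval ran from −0.15 to 0.09. That interval holds for the brightest probe set. Over the 17 alternative settings, which include the mean of probe sets, this difference ran from −0.048 to 0.134, without a call. The difference of angiotensin II from DMSO ran from 0.688 to 0.822 over the same settings.

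DNAJB4, a J protein close in sequence to DNAJB1 (chromosome 1), read 8.60, 8.59 and 8.60 on the torcetrapib arrays, 9.15, 8.97 and 9.06 on the angiotensin II arrays and 8.66, 8.54 and 8.55 on the DMSO arrays. Again the angiotensin II arrays alone stood above the rest. It rose 1.39-fold with angiotensin II (log2 0.48 ± 0.06 SE, adjusted p = 0.000128, limma). Its second probe set differed from DMSO by 0.46 with torcetrapib (adjusted p = 0.148) and 0.35 with angiotensin II (adjusted p = 0.267), not past the threshold in limma over single probe sets. DNAJB2, which has ubiquitin-binding motifs and passes clients to the proteasome (chromosome 2), read 7.32, 7.37 and 7.19 on the torcetrapib arrays, 7.74, 7.64 and 7.89 on the angiotensin II arrays and 7.37, 7.27 and 7.34 on the DMSO arrays. The lowest angiotensin II array lay above the highest of the other 6. DNAJB2 rose 1.35-fold with angiotensin II (log2 0.43 ± 0.09 SE, adjusted p = 0.00488, limma). Torcetrapib minus DMSO was 0.02 for DNAJB4 (adjusted p = 0.953) and −0.04 for DNAJB2 (adjusted p = 0.916), neither past the limma threshold. The calls of DNAJB4 and DNAJB2 with angiotensin II held in all 18 alternative settings.

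The promoters of the J protein genes above are shown beside 3 other chaperone genes, since heat shock elements there are the known route of HSF1 to this family. Each window is the 250 bases before a transcription start listed by RefSeq on GRCh38.p14, printed 5′ to 3′ on the gene's strand, with capitals on the matches to the motifs searched.
DNAJB1, chr19:14518398-14518647, minus strand: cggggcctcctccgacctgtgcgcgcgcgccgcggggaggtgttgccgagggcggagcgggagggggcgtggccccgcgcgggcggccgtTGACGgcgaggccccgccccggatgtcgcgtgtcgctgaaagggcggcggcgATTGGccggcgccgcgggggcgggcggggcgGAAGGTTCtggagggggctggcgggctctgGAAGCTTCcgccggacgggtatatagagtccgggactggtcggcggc
DNAJB4, chr1:78004689-78004938, plus strand: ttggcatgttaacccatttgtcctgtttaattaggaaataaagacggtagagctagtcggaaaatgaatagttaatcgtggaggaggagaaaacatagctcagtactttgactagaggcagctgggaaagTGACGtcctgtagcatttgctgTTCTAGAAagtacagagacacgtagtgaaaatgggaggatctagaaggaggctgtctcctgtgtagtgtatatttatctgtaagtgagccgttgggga
DNAJB2, chr2:219279116-219279365, plus strand: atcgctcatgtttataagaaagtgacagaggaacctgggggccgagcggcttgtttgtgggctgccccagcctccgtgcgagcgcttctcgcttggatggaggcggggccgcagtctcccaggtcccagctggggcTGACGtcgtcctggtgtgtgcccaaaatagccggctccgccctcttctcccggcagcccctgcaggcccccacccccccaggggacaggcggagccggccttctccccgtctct
DNAJB14, chr4:99946619-99946868, minus strand: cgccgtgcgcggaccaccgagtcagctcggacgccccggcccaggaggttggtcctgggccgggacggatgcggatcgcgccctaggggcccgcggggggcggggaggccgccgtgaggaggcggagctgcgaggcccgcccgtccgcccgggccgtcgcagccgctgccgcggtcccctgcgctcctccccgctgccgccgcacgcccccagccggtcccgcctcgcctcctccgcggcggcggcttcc
HSPA6, chr1:161524290-161524539, plus strand: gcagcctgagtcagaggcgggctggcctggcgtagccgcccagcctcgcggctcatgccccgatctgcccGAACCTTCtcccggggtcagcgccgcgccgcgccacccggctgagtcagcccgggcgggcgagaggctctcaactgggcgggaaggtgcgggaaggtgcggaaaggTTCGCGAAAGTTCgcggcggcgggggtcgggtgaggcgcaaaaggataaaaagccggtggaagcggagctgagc
HSP90AA1, chr14:102087045-102087294, minus strand: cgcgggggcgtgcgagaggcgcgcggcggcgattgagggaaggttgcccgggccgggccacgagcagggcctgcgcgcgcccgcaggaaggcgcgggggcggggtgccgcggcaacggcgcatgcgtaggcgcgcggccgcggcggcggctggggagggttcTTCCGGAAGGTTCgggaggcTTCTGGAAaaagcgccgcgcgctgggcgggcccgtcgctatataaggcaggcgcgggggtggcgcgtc
DNAJB6, chr7:157336754-157337003, plus strand: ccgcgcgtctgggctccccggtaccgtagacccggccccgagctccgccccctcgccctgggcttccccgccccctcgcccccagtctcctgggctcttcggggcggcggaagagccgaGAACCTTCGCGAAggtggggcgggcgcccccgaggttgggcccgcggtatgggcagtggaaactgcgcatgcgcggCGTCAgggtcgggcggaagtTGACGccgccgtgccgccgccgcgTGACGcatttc
The windows of DNAJB1, DNAJB4 and HSP90AA1 belong to the second listed start of the gene and lie inside the bounds of its longest transcript. The motifs were a heat shock element of 3 units (GAANNTTCNNGAA or TTCNNGAANNTTC) and of 2 units (GAANNTTC or TTCNNGAA), the full cAMP response element TGACGTCA, its 5-letter core TGACG or CGTCA, and the CCAAT box CCAAT or ATTGG. Listing both spellings covers both strands, the element of 2 units is contained in that of 3, and the core in the full response element.

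DNAJB1 held 2 heat shock elements of 2 units, GAAGGTTC at 77 and GAAGCTTC at 47 bases before the start. DNAJB4 held 1, TTCTAGAA at 98 bases before the start, and DNAJB2 and DNAJB14 held none. The other 2 listed starts of DNAJB1 held no heat shock element and no core of the cAMP response element, and the other start of DNAJB4 and of HSP90AA1 likewise held none. HSPA6, HSP90AA1 and DNAJB6 were chosen for print because a window of each held an element of 3 units, so its presence there is not a result. Such an element occurred in 5 of the 89 windows of the chaperone genes (5.62%), against 0.442% of all 35093 windows of that length. It was found for DNAJB6, HSP90AA1, HSP90AB1, HSPA6 and HSPD1. The element of 2 units occurred in 20.2% of the chaperone windows and 11.6% of all windows, and the core of the cAMP response element in 38.2% and 21.2%. That core stood at 160 bases before the start of DNAJB1, at 120 for DNAJB4 and at 114 for DNAJB2. DNAJB6, which was not called against DMSO, held it at 55, 35 and 11 bases before the start. The windows of BAG3, DNAJC12 and HSPA2, which rose with angiotensin II, did not hold it. The full response element occurred in 4.49% of the chaperone windows and 1.65% of all, and the CCAAT box in 32.6% and 32%. These matches describe letters in a window and not binding, and a window without a match says only that these letters are not in it.

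DNAJC12 (chromosome 10), a cochaperone of the aromatic amino acid hydroxylases, read 9.30, 9.31 and 9.23 on the torcetrapib arrays, 9.50, 9.35 and 9.53 on the angiotensin II arrays and 9.02, 8.98 and 9.09 on the DMSO arrays. Every angiotensin II array lay above every torcetrapib array, and every torcetrapib array above every DMSO array. DNAJC12 rose 1.35-fold with angiotensin II (log2 0.43 ± 0.06 SE, adjusted p = 0.000213, limma). Torcetrapib minus DMSO was 0.25 with an adjusted p of 0.0606, and torcetrapib minus angiotensin II was −0.18 with an adjusted p of 0.0704, so neither passed in limma. Its 2 other probe sets differed from DMSO by 0.42 and 0.30 with torcetrapib and by 0.40 and 0.50 with angiotensin II.

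BAG3 and HSPA2 moved by less. BAG3 (chromosome 10), which links HSP70 clients to autophagy, read 9.96, 9.90 and 9.85 on the torcetrapib arrays, 10.12, 10.14 and 10.11 on the angiotensin II arrays and 9.96, 9.91 and 9.91 on the DMSO arrays. HSPA2 (chromosome 14), an HSP70 known best from testis, read 10.48, 10.57 and 10.47 on the torcetrapib arrays, 10.73, 10.71 and 10.81 on the angiotensin II arrays and 10.54, 10.54 and 10.65 on the DMSO arrays. For both genes the angiotensin II arrays lay above the other 6. BAG3 rose 1.15-fold with angiotensin II (log2 0.20 ± 0.05 SE, adjusted p = 0.0183, limma), and the call was lost in 6 of 17 alternative settings, among them the ones without the first or the second angiotensin II array (adjusted p = 0.0662 and 0.0533) or the third DMSO array (0.0655), with adjusted p from 0.00326 to 0.0912 over all 17. HSPA2 rose 1.13-fold (log2 0.17 ± 0.05 SE, adjusted p = 0.0429, limma), and the call was lost in 12 of 17 settings, with adjusted p from 0.00503 to 0.182. Leaving out any torcetrapib array, the first or the third angiotensin II array, or the first or the second DMSO array was enough to lose it. Each of the 2 genes has 1 probe set.

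**Figure D1:**
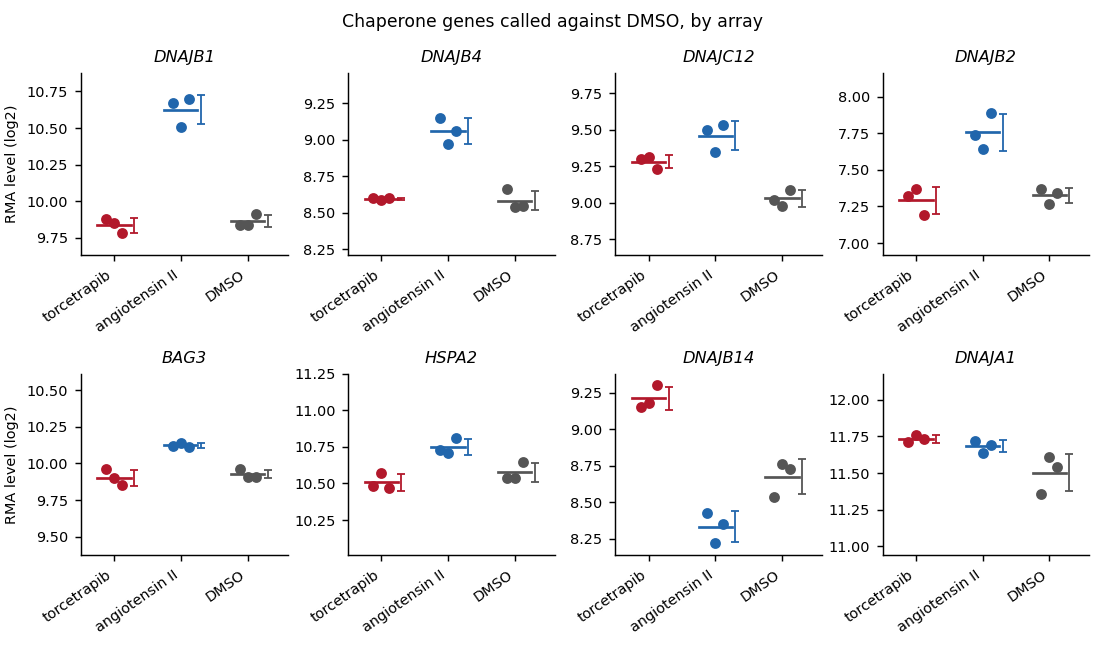
RMA levels on a log2 scale of the 8 chaperone genes called against DMSO with either treatment, 1 panel per gene and 1 point per array. Horizontal lines are group means and bars beside the points are SD (n = 3). The angiotensin II arrays of DNAJB1 sit between 10.51 and 10.70, above all torcetrapib and DMSO arrays, while DNAJB14 has torcetrapib highest and angiotensin II lowest.

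Torcetrapib raised 2 chaperone genes against DMSO, DNAJB14 and DNAJA1, and lowered 0. The 2 calls are 2.70% of the 74 genes in limma with Benjamini-Hochberg adjustment, beside 1.16% of all genes. An unadjusted p under 0.05 was found for 12 chaperone genes, beside 2639 of all 19775 genes. Of all genes 0.592% were called higher and 0.566% lower. Of all genes, 6.04% lay above DMSO on every torcetrapib array and 10.5% below, against 10 and 7 of the chaperone genes. The median difference of the 74 genes was 0.00 on the log2 scale, beside −0.03 for all genes, with 37 higher and 37 lower. With the 5′ to 3′ index as a covariate 0 of the 74 genes passed in limma. Unadjusted p was under 0.05 for 4 of them, beside 1110 of all 19775 genes. All torcetrapib arrays lay above all DMSO arrays in index, so this fit cannot fully separate the index from the treatment. Within groups the index varied mainly over the DMSO arrays, from −0.719 to −0.276, so the fitted slope rests largely on them. Leaving out 1 array gave 5 calls without the second DMSO array, 4 without the second angiotensin II array and 1 without any other.

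DNAJB14 (chromosome 4), a J protein of the ER membrane, was the single chaperone gene that passed in both comparisons with DMSO, in opposite directions. Its brightest probe set read 9.15, 9.18 and 9.30 on the torcetrapib arrays, 8.43, 8.22 and 8.35 on the angiotensin II arrays and 8.54, 8.76 and 8.73 on the DMSO arrays. The 3 groups did not overlap, with DMSO between the treatments. It rose 1.45-fold with torcetrapib (log2 0.54 ± 0.08 SE, adjusted p = 0.00228, limma) and fell 1.27-fold with angiotensin II (log2 −0.34 ± 0.08 SE, adjusted p = 0.0117, limma).

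The probe sets of DNAJB14 differed on torcetrapib. A second one read 8.48, 8.48 and 8.47 on the torcetrapib arrays, 8.40, 8.04 and 8.34 on the angiotensin II arrays and 8.68, 8.59 and 8.69 on the DMSO arrays, with torcetrapib below DMSO. Its differences from DMSO were −0.18 with torcetrapib (adjusted p = 0.405) and −0.39 with angiotensin II (adjusted p = 0.0273), in limma over single probe sets. The third differed from DMSO by −0.04 with torcetrapib and −0.18 with angiotensin II. So all 3 probe sets were lower with angiotensin II, while the rise with torcetrapib was found on the brightest probe set and not on the other 2. With the index as a covariate the brightest probe set gave 0.40 for torcetrapib with an adjusted p of 0.137 in limma. Over 18 settings that adjusted p ran from 0.000161 to 0.572. The fall with angiotensin II lost its call without the second angiotensin II array (adjusted p = 0.0541) and without the third DMSO array (0.0599), its highest adjusted p over 18 settings, the lowest being 0.00528.

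DNAJA1 (chromosome 9), a major J protein of the cytosol that works with HSP70 and HSP90, read 11.71, 11.76 and 11.73 on the torcetrapib arrays, 11.72, 11.64 and 11.69 on the angiotensin II arrays and 11.36, 11.61 and 11.54 on the DMSO arrays. Both treatments lay above all DMSO arrays, and the first DMSO array was the lowest of the 9. DNAJA1 rose 1.17-fold with torcetrapib (log2 0.23 ± 0.05 SE, adjusted p = 0.041, limma), and angiotensin II minus DMSO was 0.18 (adjusted p = 0.0532). The torcetrapib call was lost in 13 of 18 settings, with adjusted p from 0.00272 to 0.998. Leaving out any torcetrapib array, the first or the third angiotensin II array, or the first or the third DMSO array was enough to lose it. The second probe set of DNAJA1 differed from DMSO by 0.03 with torcetrapib and 0.19 with angiotensin II. The angiotensin II difference of DNAJA1 passed in 7 of 18 settings, with adjusted p from 0.000325 to 0.244 in limma. With the index as a covariate torcetrapib gave 0.09 and angiotensin II 0.24, and with the mean of probe sets torcetrapib gave 0.13 and angiotensin II 0.19. In both settings angiotensin II passed and torcetrapib did not.

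The HSP60, HSP10 and HSP90 genes did not pass the test in either comparison with DMSO. HSPD1, which is mitochondrial HSP60 (chromosome 2), read 13.93, 13.95 and 13.94 on the torcetrapib arrays, 13.92, 13.92 and 13.92 on the angiotensin II arrays and 13.90, 13.96 and 13.92 on the DMSO arrays. All 9 values fell within the range of the DMSO arrays. The difference of HSPD1 from DMSO had a 95% interval from −0.03 to 0.06 with torcetrapib and from −0.05 to 0.04 with angiotensin II. These intervals hold for its brightest probe set. Over 18 alternative settings the difference ran from −0.019 to 0.401 with torcetrapib, without a call. With angiotensin II it ran from −0.125 to 0.163, also without a call. HSP90AA1, the inducible cytosolic HSP90 (chromosome 14), read 13.49, 13.52 and 13.51 on the torcetrapib arrays, 13.57, 13.54 and 13.49 on the angiotensin II arrays and 13.55, 13.52 and 13.52 on the DMSO arrays. Its intervals ran from −0.08 to 0.03 with torcetrapib and from −0.05 to 0.06 with angiotensin II. HSP90AB1, the constitutive form, differed from DMSO by 0.06 with torcetrapib and 0.07 with angiotensin II, and HSPE1, the HSP10 partner of HSPD1, by −0.02 with torcetrapib and −0.07 with angiotensin II, where all angiotensin II arrays lay below the DMSO arrays (adjusted p = 0.217, limma). Over 18 settings HSP90AB1 ran from −0.014 to 0.341 with torcetrapib and from −0.133 to 0.109 with angiotensin II, without a call.

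HSPA6, an HSP70 that is nearly silent in unstressed human cells and strongly induced by heat, is a sensitive reporter of the classical heat shock response. It read 5.28, 5.31 and 5.30 on the torcetrapib arrays, 5.32, 5.21 and 5.30 on the angiotensin II arrays and 5.38, 5.30 and 5.29 on the DMSO arrays, just above the lower quartile of gene means. The groups overlapped, and the intervals of its difference from DMSO ran from −0.21 to 0.16 with torcetrapib and from −0.23 to 0.14 with angiotensin II.

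Among the other HSP70 and HSP110 genes, torcetrapib and angiotensin II differed from DMSO by 0.05 and 0.00 for HSPA4 and by 0.06 and 0.07 for HSPH1, the HSP110 exchange factors of the cytosol. HSPA9, the mitochondrial HSP70, gave −0.03 with torcetrapib and 0.06 with angiotensin II, HSPA13 gave −0.01 and 0.12, HSPA14 gave 0.15 and 0.06, and HSPA1L gave −0.08 and 0.07. HSPA4L had the widest difference of this family with torcetrapib, 0.29, with all torcetrapib arrays above the DMSO arrays and an adjusted p of 0.152 in limma, and 0.17 with angiotensin II. The family had 0 calls among 11 genes with torcetrapib and 2 with an unadjusted p under 0.05 in limma. HSPA2 was its single call with angiotensin II, where 2 genes had an unadjusted p under 0.05.

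Of the 9 genes whose symbol starts with HSPB, small heat shock proteins with HSPBP1 and HSPBAP1, 0 passed in limma against DMSO with either treatment. Unadjusted p was under 0.05 for 2 with torcetrapib and 3 with angiotensin II. HSPB1, the small heat shock protein HSP27, read 12.13, 12.16 and 12.06 on the torcetrapib arrays, 12.11, 12.14 and 12.18 on the angiotensin II arrays and 11.95, 12.04 and 12.08 on the DMSO arrays. Its angiotensin II arrays lay just above the DMSO arrays, with a difference of 0.12 (adjusted p = 0.0989, limma), and torcetrapib minus DMSO was 0.09 (adjusted p = 0.32). HSPB8, the partner of BAG3, differed from DMSO by 0.06 and 0.01 with torcetrapib and angiotensin II, and HSPBP1, an HSP70 exchange factor, by 0.01 and 0.13.

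The remaining cochaperones that were looked at whatever their outcome did not pass against DMSO. DNAJA3, a mitochondrial J protein, differed by 0.03 with torcetrapib and 0.02 with angiotensin II. DNAJB6, a suppressor of aggregation, gave −0.05 and 0.04, with intervals as wide as −0.30 to 0.20 and −0.21 to 0.29. BAG1 gave 0.10 and −0.04, BAG2 gave −0.01 and 0.20, and BAG4 gave −0.03 and −0.10. Below the lower quartile of gene means lay 10 chaperone genes, with 0 calls against DMSO in limma with either treatment and 1 at an unadjusted p under 0.05 for torcetrapib and 3 for angiotensin II. They include DNAJB7, DNAJC28 and HSPA2-AS1.

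**Figure D2:**
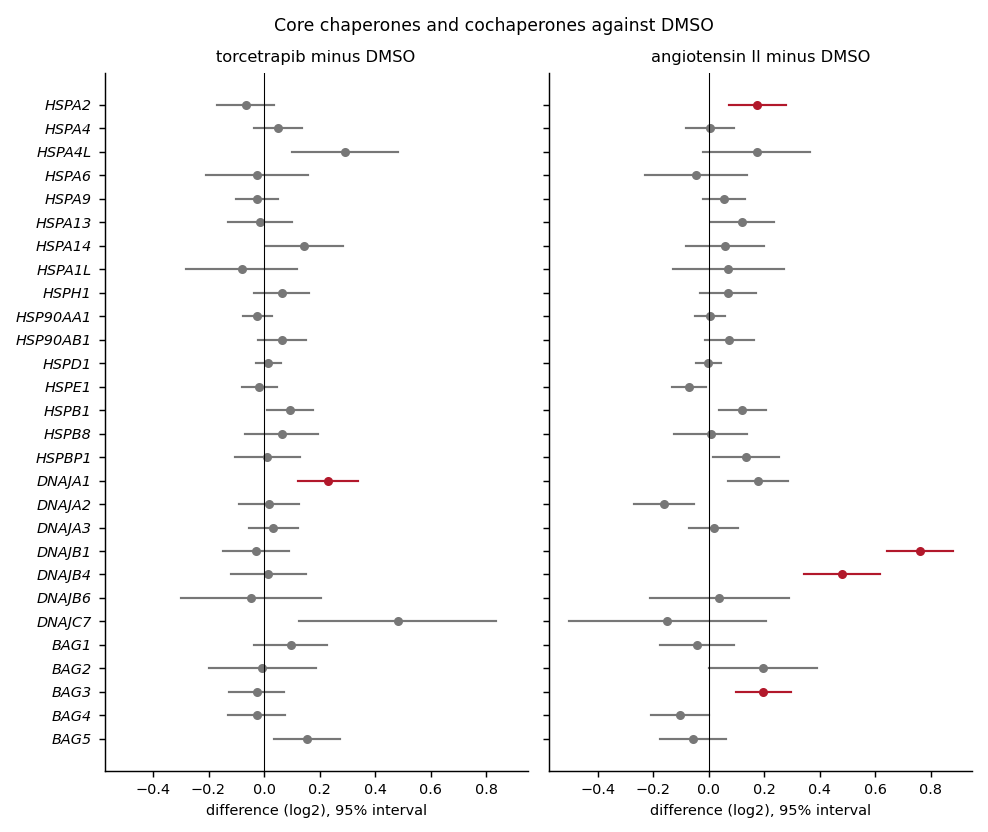
Differences from DMSO on the log2 scale with 95% intervals for central chaperones and cochaperones, torcetrapib in the left panel and angiotensin II in the right. Red marks an adjusted p under 0.05. DNAJB1 at 0.76 stands far to the right of HSPD1, HSPE1, HSP90AA1 and HSP90AB1, whose differences lie between −0.07 and 0.07 in both panels.

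Set directly against angiotensin II, torcetrapib gave 6 higher and 9 lower chaperone genes. The 15 calls are 20.3% of the 74 genes in limma with Benjamini-Hochberg adjustment, beside 11.3% of all genes, of which 4.61% were higher and 6.68% lower. Centring each array on its median changed the split to 2 higher and 8 lower. Torcetrapib arrays lay above all angiotensin II arrays for 8 chaperone genes and below them for 16, while 10.3% of all genes lay above and 18.4% below (28.6% together). The count was 8 without the first torcetrapib array, 9 without the second, 9 without the second angiotensin II array and between 10 and 15 without any other. All angiotensin II arrays differ from all torcetrapib arrays in the 5′ to 3′ index as well, and with the index as a covariate 2 calls were left. The 2 were DNAJB1 with a difference of −0.79 (adjusted p = 0.000232, limma), and DNAJB14 with one of 0.69 (adjusted p = 0.00688, limma). Most of the 8 lower genes that lost their call kept a difference near the one without the index, with a wider error. The values with the index were −0.41 ± 0.16 for DNAJA4, −0.40 ± 0.15 for DNAJB2, −0.37 ± 0.11 for DNAJB4, −0.35 ± 0.12 for DNAJC6, −0.26 ± 0.12 for HSPB7, −0.25 ± 0.08 for HSPA2, −0.17 ± 0.08 for BAG3 and −0.17 ± 0.10 for DNAJB12 (SE). Among the higher genes, DNAJC19 gave 0.20 ± 0.11 and DNAJC22 0.15 ± 0.13, while BAG5 at 0.06 ± 0.09, DNAJA2 at 0.04 ± 0.08 and DNAJC7 at −0.02 ± 0.21 were closer to 0 (SE).

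Of the 6 genes that rose with angiotensin II, 5 were lower with torcetrapib than with angiotensin II. Torcetrapib minus angiotensin II was −0.79 for DNAJB1 (adjusted p = 1.37e-07), −0.46 for DNAJB4 (adjusted p = 0.000213) and −0.46 for DNAJB2 (adjusted p = 0.00229) in limma. It was −0.24 for HSPA2 (adjusted p = 0.00413) and −0.22 for BAG3 (adjusted p = 0.006). DNAJC12 was the exception. With the mean of probe sets DNAJB4 fell short of the threshold at −0.18 (adjusted p = 0.153, from 2.57e-07 to 0.177 over 18 settings, limma), and its second probe set had torcetrapib higher than angiotensin II by 0.11. This comparison shares its angiotensin II arrays with the comparison against DMSO.

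Another 4 genes were lower with torcetrapib than with angiotensin II without a call against DMSO. DNAJC6, or auxilin, which strips clathrin from vesicles, read 8.67, 8.65 and 8.63 on the torcetrapib arrays, 9.04, 8.99 and 9.16 on the angiotensin II arrays and 8.93, 8.84 and 9.10 on the DMSO arrays. Torcetrapib lay below both other groups, by −0.41 against angiotensin II (adjusted p = 0.00129, limma) and by −0.30 against DMSO (adjusted p = 0.0524). HSPB7, a small heat shock protein known from heart, gave −0.32 against angiotensin II (adjusted p = 0.00797), DNAJA4 gave −0.35 (adjusted p = 0.0183) and DNAJB12 gave −0.18 (adjusted p = 0.0423, limma). With the mean of probe sets none of the last 3 passed, and the values were −0.15 for HSPB7, −0.08 for DNAJA4 and 0.038 for DNAJB12, a J protein of the ER membrane. The call of DNAJA4 was also lost without any 1 torcetrapib array and without the first or the second angiotensin II array. That of DNAJB12 was lost without the first or the third torcetrapib array, any angiotensin II array or the first DMSO array.

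The 5 genes that were higher with torcetrapib than with angiotensin II, beside DNAJB14, were DNAJC7, DNAJC22, DNAJC19, BAG5 and DNAJA2. DNAJC7, which binds both HSP70 and HSP90, read 9.67, 9.79 and 9.56 on the torcetrapib arrays, 9.15, 8.73 and 9.26 on the angiotensin II arrays and 8.95, 9.70 and 8.93 on the DMSO arrays. The second DMSO array, which has the highest index of its group, lay among the torcetrapib arrays and the other 2 DMSO arrays among those of angiotensin II. The difference of 0.63 between torcetrapib and angiotensin II (adjusted p = 0.0225, limma) became −0.02 with the index as a covariate and 0.19 with the mean of probe sets, and neither passed. DNAJC22 gave 0.28 (adjusted p = 0.025), DNAJC19, of the mitochondrial import motor, 0.26 (adjusted p = 0.0158), BAG5, an HSP70 exchange factor, 0.21 (adjusted p = 0.0231) and DNAJA2, a cytosolic J protein, 0.18 (adjusted p = 0.0322), all in limma. With the mean of probe sets DNAJC22 gave 0.10, BAG5 0.09 and DNAJA2 0.04, none past the threshold. Leaving out a single array also ended calls. Without the first, or the second, torcetrapib array all 5 were lost, and without the third DNAJC7, DNAJC22 and DNAJA2. Without the first angiotensin II array DNAJC22, DNAJC19 and BAG5 were lost, without the second all 5, and without the third DNAJA2.

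**Figure D3:**
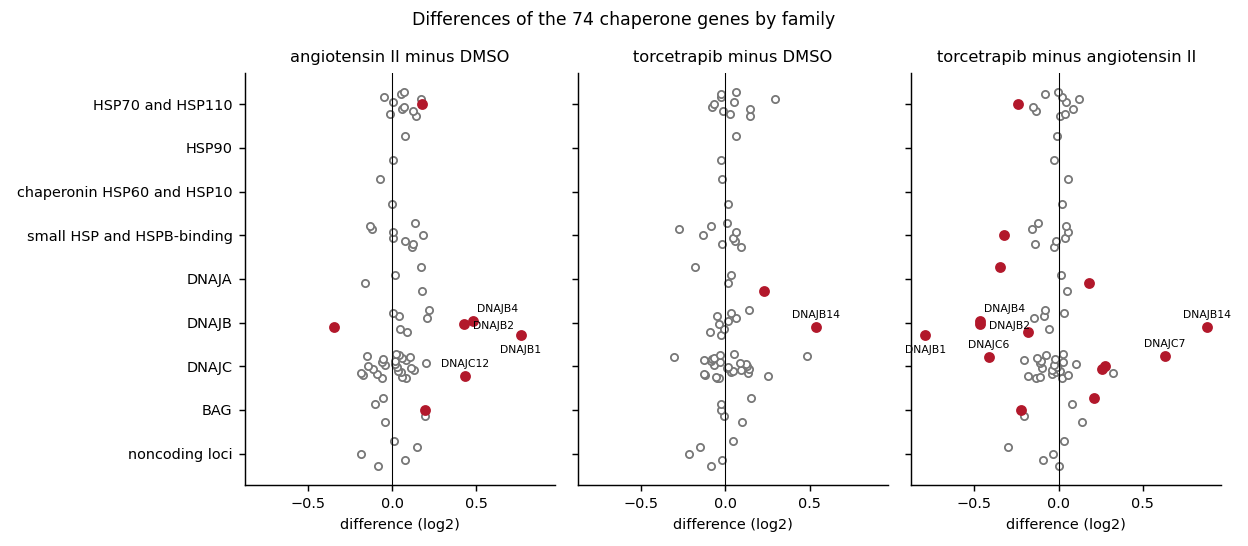
Differences on the log2 scale of the 74 chaperone genes in the 3 comparisons, by family and with 1 point per gene. Filled red points have an adjusted p under 0.05, and the genes beyond 0.4 among them are named. DNAJB1 lies at 0.76 for angiotensin II minus DMSO and at −0.79 for torcetrapib minus angiotensin II, while both HSP90 genes and both chaperonin genes lie near 0 in every panel.

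For 54 of the 74 genes the array holds more than 1 probe set of a single symbol, 174 probe sets in all. When each probe set was tested on its own, 32 of these differed between torcetrapib and angiotensin II, 21 higher and 11 lower. Of all single-symbol probe sets 11.6% did so, 7.22% higher and 4.37% lower. Among the 100 that were not the brightest of their gene, 18 were called and 15 of these were higher with torcetrapib. With the index as a covariate 3 of the 174 were called. The angiotensin II comparison with DMSO gave 8 higher and 3 lower, beside 2.17% and 1.46% of all probe sets (3.63% together), and 9 calls with the index. Torcetrapib against DMSO gave 4, all higher, beside 0.849% of all probe sets higher and 1.11% in either direction. With the index 0 of the 174 passed in limma and 15 had an unadjusted p under 0.05.

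In several cases a dimmer probe set of a central chaperone differed between torcetrapib and angiotensin II while the brightest did not pass. A dimmer probe set of HSPD1 read 6.57, 5.93 and 6.53 on the torcetrapib arrays, 4.23, 4.01 and 4.12 on the angiotensin II arrays and 4.11, 5.98 and 4.17 on the DMSO arrays. The second DMSO array lay with torcetrapib and the other 2 with angiotensin II. Torcetrapib minus angiotensin II was 2.22 (adjusted p = 0.00331, limma), and with the index as a covariate it was 0.72 (adjusted p = 0.722). A dimmer one of HSP90AB1 read 12.62, 12.74 and 12.76 on the torcetrapib arrays, 11.77, 11.43 and 11.76 on the angiotensin II arrays and 11.49, 12.58 and 11.94 on the DMSO arrays. Its second DMSO array lay just below the torcetrapib arrays, and torcetrapib minus angiotensin II was 1.05 (adjusted p = 0.00502, limma), and 0.13 with the index (adjusted p = 0.864). One of HSPA4 read 9.84, 10.03 and 10.07 on the torcetrapib arrays, 8.51, 8.20 and 8.70 on the angiotensin II arrays and 8.18, 9.87 and 8.98 on the DMSO arrays, with the second DMSO array again in the torcetrapib range. Its difference of 1.51 (adjusted p = 0.00702, limma) was 0.06 with the index (adjusted p = 0.967).

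Over the 15 dimmer probe sets that were higher with torcetrapib than with angiotensin II, the second DMSO array was the highest DMSO array in 14 (93.3%). The same array was the highest in 41 of the 100 dimmer probe sets, in 27.0% of the 74 brightest ones and in 35.2% of all single-symbol probe sets. It lay nearer the torcetrapib mean than the angiotensin II mean in 12 of the 15, in 56 of the 100 and in 52 of the 74. Over all single-symbol probe sets this was so for 23259 of 41091. The 15 were chosen by the difference between the treatments, and the count was made after the pattern had been seen, so it is a description. Between the torcetrapib and the angiotensin II arrays the index and the treatment cannot be told apart, since their index values do not overlap. Those of the torcetrapib and the DMSO arrays do not overlap either, though the second DMSO array at −0.276 lay close to the first torcetrapib array at −0.275.

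**Figure D4:**
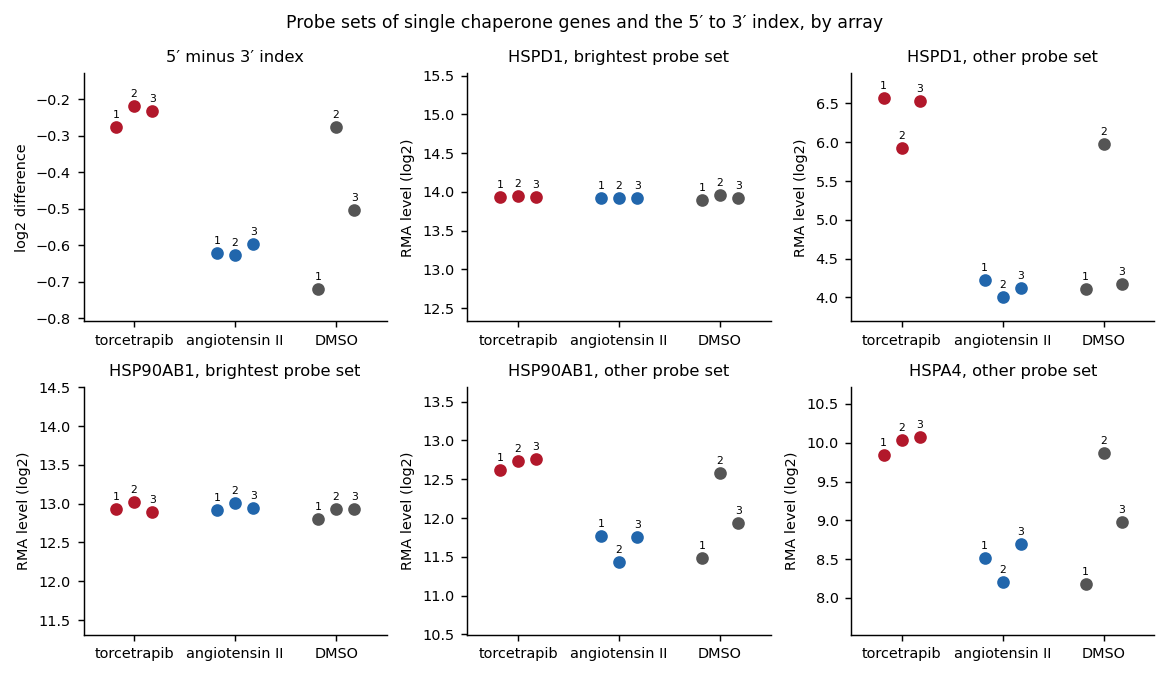
The 5′ minus 3′ index of each array and the RMA levels on a log2 scale of probe sets of HSPD1, HSP90AB1 and HSPA4, with numbers giving the array within its group. The level panels span the same range. The brightest probe sets of HSPD1 and HSP90AB1 lie close together across the groups, while in the other probe sets the second DMSO array, with an index of −0.276, lies with the torcetrapib arrays or close to them.

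Genes that work with these chaperones were counted beside the shares of all genes called, which were 1.16% for torcetrapib against DMSO, 6.12% for angiotensin II against DMSO and 11.3% for torcetrapib against angiotensin II. In the same order, 2639, 3259 and 4902 of all 19775 genes had an unadjusted p under 0.05. Of the 8 heat shock factors and regulators measured, SIRT1, a deacetylase of HSF1, rose with angiotensin II (log2 0.66, adjusted p = 3.66e-05, limma), and 0 passed with torcetrapib against DMSO, where 1 had an unadjusted p under 0.05. HSF1 itself differed from DMSO by −0.08 with torcetrapib and 0.02 with angiotensin II. Of 22 HSP90 cochaperones and of 12 subunits of the cytosolic chaperonin and prefoldin 0 passed against DMSO in limma. At an unadjusted p under 0.05 there were 3 and 3 with torcetrapib, and 1 and 2 with angiotensin II. Among 15 genes of mitochondrial protein quality control, GRPEL2, an exchange factor of mitochondrial HSP70, fell with angiotensin II (log2 −0.32, adjusted p = 0.00363, limma), and 0 passed with torcetrapib, with 6 at an unadjusted p under 0.05. Torcetrapib against angiotensin II gave 1 call among the regulators (SIRT1, −0.46), 1 among the HSP90 cochaperones (PPID, a cyclophilin, 0.32), 0 in limma among the chaperonin and prefoldin subunits, where 5 had an unadjusted p under 0.05, and 2 among the mitochondrial genes. The last were HSCB, a J protein of iron-sulfur cluster assembly, at 0.28 and AFG3L2, a subunit of an inner membrane protease, at −0.13. All torcetrapib arrays lay above all angiotensin II arrays in the 5′ to 3′ index, and these values come from the fit without it.

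Of 13 other genes known to be induced by heat shock, 1 rose with torcetrapib (7.69%) and 3 with angiotensin II (23.1%). Called higher in these comparisons were 0.592% and 3.36% of all genes, and called in either direction 1.16% and 6.12%. This and the other lists were chosen with earlier results of these data known, so their shares are a description and not a test. GADD45B, a stress sensor of MAP kinase signalling, rose with angiotensin II (log2 1.91, adjusted p = 4.45e-10, limma), as did RGS2, which limits G protein signals (log2 0.80, adjusted p = 3.08e-07), and HMOX1, heme oxygenase (log2 0.50, adjusted p = 0.00185). RGS2 rose with torcetrapib by 0.38 (adjusted p = 0.00591, limma). These genes also respond to signals other than heat. Of the 11 ER chaperones that the symbol rule leaves out, DNAJB9 rose with angiotensin II (log2 0.58, adjusted p = 8.29e-06, limma), and 0 passed with torcetrapib, with 6 at an unadjusted p under 0.05. Between torcetrapib and angiotensin II, 4 of the 13 heat-inducible genes (30.8%, beside 11.3% of all genes in either direction) were lower with torcetrapib (GADD45B −1.86, RGS2 −0.42, HMOX1 −0.33 and IER5 −0.27). Of the 11 ER chaperones 2 were higher and 3 lower (45.5% together, beside the same 11.3%), from 0.39 for HSP90B1, the HSP90 of the ER, to −0.37 for DNAJB9. These values, too, come from the fit without the 5′ to 3′ index. With the index as a covariate, calls over all genes between torcetrapib and angiotensin II went from 2232 to 280.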

How the data were processed

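Total RNA of 9 samples was hybridised to 1-colour Affymetrix arrays. Each deposited value is the log2 expression of a probe set. The submitters' processing notes name RMA (robust multi-array averaging), and neither the software nor the chip description is given in the sources used here. Values ran from 2.50 to 14.6, and nothing was normalised again. RMA reports no background call, so a low level does not show that a transcript was absent.

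Of 54675 probe sets, 62 were controls, 41091 carried 1 gene symbol, 1801 several and 11721 none. Each of 19775 genes was represented by its brightest single-symbol probe set over all arrays. Levels of different probe sets were ranked to choose probe sets and name bright and dim genes, and set against the lower quartile of gene means, and otherwise not compared. limma 3.58.1 in R 4.3.3 fitted a mean per group to every gene, leaving 6 residual degrees of freedom, with variances moderated along mean intensity. Two-sided p-values were adjusted by Benjamini-Hochberg over all genes, and values under 0.05 counted as calls. The 95% intervals carry no such adjustment. The method was tested on simulated data. It found 13 of 50 genes changed 1.2-fold for angiotensin II against DMSO. For torcetrapib it found 5 of 50 against DMSO and 8 of 50 against angiotensin II. At 1.5-fold it found 44, 39 and 43 in the same order. False calls were 9 of 165, 11 of 152 and 3 of 154.

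The genes and lists were chosen with earlier results of these data known. Genes named were those called, a set of central chaperones whatever their outcome, and the 3 brightest and 3 dimmest. Single probe sets were tested, with and without the index, as alternatives chosen after seeing the data. Promoter windows came from RefSeq, and 66 of the 74 genes had one. Other alternatives were the scaling, dim genes, choice of probe sets, array weights, variance moderation, groups fitted, threshold, index and each array left out.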

Additional observations from a re-analysis of the deposited data

How the results depend on the processing

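With angiotensin II against DMSO, the count of 7 chaperone calls stayed between 5 and 10 in all settings but array weights (14). Leaving out 1 array gave 5 to 8. For torcetrapib against DMSO the 2 calls became 0 with the 5′ to 3′ index as a covariate, 0 with the mean of probe sets, 0 without _x_at and _s_at probe sets and 0 for single probe sets with the index. Chaperone genes at an unadjusted p under 0.05 in limma then numbered 4, 15, 12 and 4. Over all genes these counts were 1110 with the index, 2386 with the mean of probe sets and 2049 without _x_at and _s_at probe sets. The 2 calls became 1 with centred arrays, with only the 2 groups, without the intensity trend and with single probe sets. They became 4 at a threshold of 0.1, with quantile normalisation (3 higher and 1 lower) and without dim genes, and 8 with array weights. Leaving out 1 array gave 1 to 5. For torcetrapib against angiotensin II the 15 calls became 2 with the index, for genes and for single probe sets, and 25 with array weights. The differences of the 8 lower genes that lost their call with the index lay between −0.41 and −0.17, with SE from 0.08 to 0.16, and those of the 5 higher ones between −0.02 and 0.20. Leaving out 1 array gave 8 to 15.

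Over all genes, array weights gave 2712 calls for angiotensin II against DMSO, beside 1210, 1272 for torcetrapib against DMSO, beside 229, and 6216 for torcetrapib against angiotensin II, beside 2232. The count for torcetrapib against DMSO was 76 with the index, 503 at a threshold of 0.1, 120 with centred arrays (79 higher), 507 with quantile normalisation (171 higher, beside 117 of 229), 108 with the mean of probe sets, 136 without _x_at and _s_at probe sets, 145 with only the 2 groups and 50 without the trend. Torcetrapib against angiotensin II gave 280 with the index. Leaving out 1 array gave 956 to 1171 calls for angiotensin II against DMSO, 83 to 917 for torcetrapib against DMSO, the highest without the second DMSO array, and 1351 to 2653 for torcetrapib against angiotensin II.

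Among values that passed as reported or in the alternative, the sign turned for DNAJB14 with torcetrapib against DMSO (−0.18 without _x_at and _s_at probe sets). For torcetrapib against angiotensin II it turned for DNAJA1 (−0.17 in the same setting), DNAJB12 (0.038), HSP90AB1 (0.47) and HSPH1 (0.25) with the mean of probe sets, and DNAJC7 (−0.022) with the index. Of the 120 named values, 57 had a range across 0, 51 of them without a call in either setting. The first 5 turned values use other probe sets of the gene. The cause of the other changes was not tested. Named genes otherwise kept their side of the threshold in 671 of 705 alternatives for angiotensin II against DMSO, in 674 of 705 for torcetrapib against DMSO and in 625 of 705 for torcetrapib against angiotensin II. No paired analysis was possible because the labels number the samples serially across groups and share no replicate number. With 3 arrays a group and no background call, small changes of dim genes were not detectable. Small changes of brighter genes could be missed as well.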
